A study of Mus musculus with 24 samples.

Results

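Proteasome subunit genes were taken as the protein-coding rows of the count table whose mouse symbol is Psma, Psmb, Psmc, Psmd or Psme followed by a number. This rule, which uses names and no measured value, found 43 genes among 21627 protein-coding rows and 55414 rows in all. RNA was sequenced from the dissected visual cortex of 24 C57BL/6J male mice, 8 to 10 weeks old, all kept in a reversed light cycle and tested in its dark phase, giving 24 libraries from 4 groups of 6 mice. Dark mice received the vehicle, phosphate-buffered saline (PBS), and stayed in the dark. Light mice received PBS and were placed in light, psilocybin-dark mice received 5 mg/kg psilocybin and stayed in the dark, and psilocybin-light mice received 5 mg/kg psilocybin followed by light. All were killed 2.5 h later. The groups followed the headings of the study's supplementary count table. The sample labels name the same drug but the opposite light exposure for all 24 libraries, so every group name and comparison below rests on those headings. Under the labels the signs of light against dark, of psilocybin-light against psilocybin-dark and of the interaction turn around. The other comparisons then take different mice. In psilocybin-light against dark 0 proteasome genes then pass in place of 19, where 0.456% of all genes pass. In psilocybin-dark against dark 1 passes in place of 8, where 0.608% of all genes pass.

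The proteasome is the cell's main machine for breaking down proteins that carry a ubiquitin tag. Its barrel-shaped core particle, called 20S, is a stack of outer rings of alpha subunits (Psma genes) and inner rings of beta subunits (Psmb genes), and the cutting sites face the inside of the barrel. A regulatory particle, called 19S, sits on the end of the barrel: a ring of ATPases (Psmc genes) unfolds the substrate and feeds it in, and the non-ATPase subunits (most Psmd genes) recognize ubiquitin and remove it. Immunoproteasome subunits replace the standard cutting subunits in immune cells and after interferon, and activators (Psme genes) can open the barrel without ubiquitin. In neurons the proteasome is known for its part in synaptic protein turnover and plasticity.

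Of the 43 genes, 41 passed the filter on low counts (at least 30 reads in any library). Psma8, the testis form of an alpha subunit, and Psmb11, the thymus form of a cutting subunit, did not pass, with highest counts of 8 and 12 reads in any library. Library totals were 13552516 to 17906994 reads. Cortical excitatory neuron markers were detected in all groups, with sums of normalized counts of 13330 to 35000 in dark mice and 30420 to 41540 in the others. Markers of neighbouring tissue differed between libraries. The summed count of 8 cerebellar markers was 19290 to 68370 in dark mice 1 and 6, psilocybin-dark mouse 12 and light mouse 18 and at most 2461 in the others. Of 12 hippocampal markers 10 passed the filter, and their summed count was 3173 to 7508 in dark mice and at most 2182 in the others. Because all 6 dark mice had a higher hippocampal sum, each comparison with dark is also given below with a hippocampal covariate. That covariate was the mean log2 level of the same markers in each library. In bulk tissue, fewer cells of a type and less RNA per cell cannot be told apart.

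The promoters of 5 core genes that the results turn on are shown first: those of the standard cutting subunits Psmb5, Psmb6 and Psmb7, of the structural subunit Psmb1, which had the smallest adjusted p between psilocybin-light mice and psilocybin-dark mice, and of the immunoproteasome subunit Psmb10, which had the greatest fold changes. Each is the 100 bases before the start of the gene's canonical transcript in GENCODE vM39, read 5′ to 3′ on the gene's strand from GRCm39. Capitals mark a CCAAT box (CCAAT, or ATTGG on the other strand) or the antioxidant response element TGACNNNGC, the type of element through which the transcription factor NRF1 is known to raise proteasome genes.

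Psmb5: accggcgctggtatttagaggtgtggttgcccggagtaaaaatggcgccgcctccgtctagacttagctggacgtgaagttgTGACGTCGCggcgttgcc
Psmb6: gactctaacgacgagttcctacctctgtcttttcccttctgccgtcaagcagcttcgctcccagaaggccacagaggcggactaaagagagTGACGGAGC
Psmb7: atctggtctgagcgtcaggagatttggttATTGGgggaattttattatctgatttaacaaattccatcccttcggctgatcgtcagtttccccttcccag
Psmb1: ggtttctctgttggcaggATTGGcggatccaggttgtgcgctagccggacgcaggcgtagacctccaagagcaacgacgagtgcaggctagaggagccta
Psmb10: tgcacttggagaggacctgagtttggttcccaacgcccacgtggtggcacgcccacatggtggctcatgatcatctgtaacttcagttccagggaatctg

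These stretches lie at chr14:54855482-54855581 (Psmb5, minus strand), chr11:70416083-70416182 (Psmb6, plus strand), chr2:38534100-38534199 (Psmb7, minus strand), chr17:15718602-15718701 (Psmb1, minus strand) and chr8:106665078-106665177 (Psmb10, minus strand). The antioxidant response element stood in the last bases before the start of Psmb5 and Psmb6, and none of the searched motifs was found in the stretch of Psmb10. Over the 250 bases upstream of all 43 genes, searched on both strands, TGACNNNGC was in 6 promoters (Psmb5, Psmb6, Psmc6, Psmd7, Psmd9 and Psmd12), or 13.95%, against 9.692% of 21770 promoters of the same length. CCAAT was in 18, or 41.86% against 36.5%. The interferon-stimulated response element, searched as GAAA, any 2 bases and GAAA again, was in 6 (Psma4, Psma5, Psmb3, Psmd4, Psmd7 and Psmd9), or 13.95% against 3.321%. None of these motifs is contained in another, and a match is no more than a run of letters.

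The 41 genes were expressed at levels that differed widely, both between and within roles. On the scale of CPM divided by coding length in kilobases (CPM are counts scaled to a common library total), averaged over 24 mice, Psmb4, a structural beta subunit, stood at 154.5 and Psme3, which encodes the nuclear activator PA28 gamma, at 153.6. Psmb1 was at 137.3 and Psmc5, an ATPase, at 132.3. At the other end were the immunoproteasome subunits Psmb9 at 1.916 and Psmb8 at 3.442, followed by Psme4, the activator PA200, at 8.065. The third immunoproteasome subunit, Psmb10, was at 37.11, below its standard counterpart Psmb7 at 88.81 but well above the other two. Activators ranged from Psme4 at 8.065 to Psme3 at 153.6. The order at the top depends on the length used: divided by the canonical transcript length, Psmc5 (112.1), Psmb4 (103.4) and Psmc3 (91.95) were highest, and Psme3 and Psmb1, which have long transcripts, were at 26.75 and 16.47. Psmb9 (0.9305) and Psmb8 (1.674) were lowest on that scale too.

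**Figure D1:**
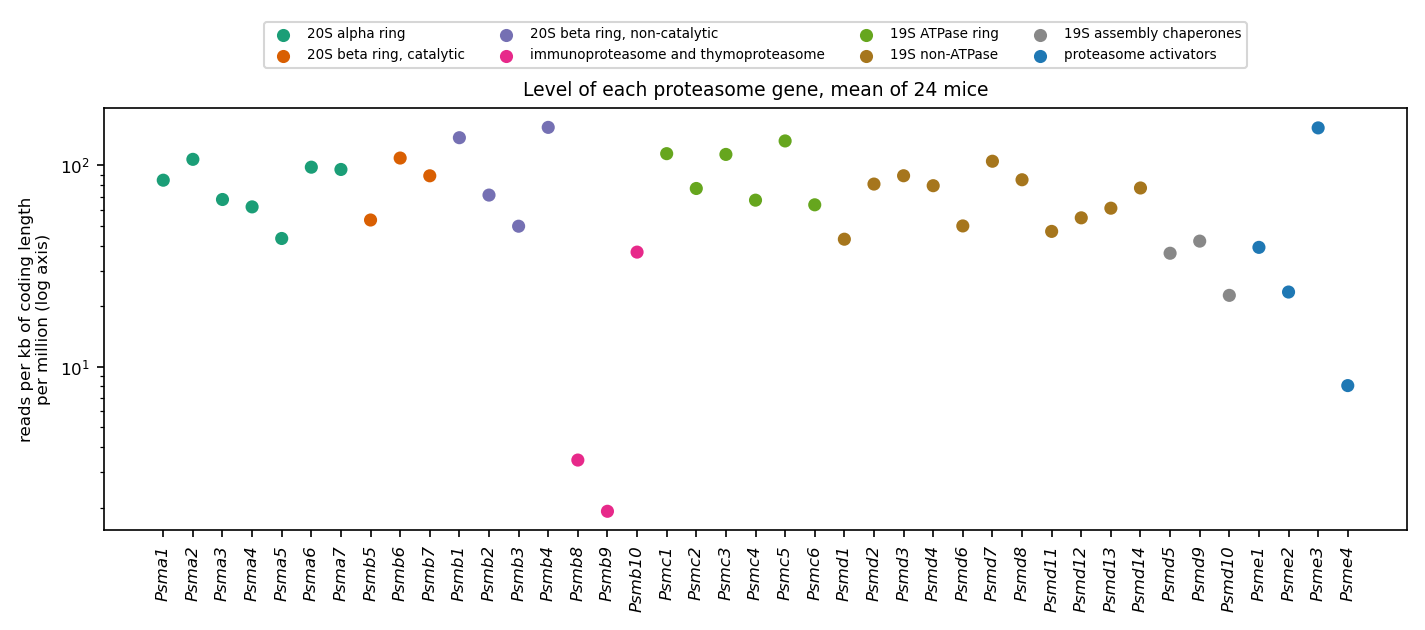
Level of each of the 41 proteasome genes, in CPM per kilobase of coding length (log axis), as the mean of 24 mice, coloured by role. Psmb8 and Psmb9 sit lowest, at 3.442 and 1.916, and Psmb4 and Psme3 highest, at 154.5 and 153.6.

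Mice of the same group differed little in these genes. The coefficient of variation within groups had a median of 4.604% over the 41 genes, against 11.13% over the 14464 genes tested, beside a median mean normalized count of 1154 against 384.3. The ATPase gene Psmc3 varied least, at 2.853%, and the low-count Psmb9 most, at 31.6%. The subunits were therefore measured with standard errors of mostly 0.03 to 0.06 on the log2 scale, and small differences could pass the test.

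Across the whole set, the differences were small and mostly upward in psilocybin-light mice. The summed normalized count of the 41 genes had a median of 47670 in dark mice (46680 to 49430), 48920 in light mice (48030 to 50600), 48710 in psilocybin-dark mice (47120 to 50300) and 51360 in psilocybin-light mice (48960 to 53860). The range of the psilocybin-light mice overlapped that of every other group. Summed markers of other cell types moved between the same groups, and their part in the result was not tested: those of 6 astrocyte markers were 22310 to 34670 in dark mice and 16290 to 22740 in psilocybin-light mice, and 8 oligodendrocyte markers had medians of 39910 and 55930 (20260 to 135800 and 46290 to 99500).

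Psilocybin-light mice were compared with dark mice to ask what light and drug did together. In edgeR's quasi-likelihood test with Benjamini-Hochberg adjustment over all genes, 19 of the 41 genes (46.34%) passed an adjusted p of 0.05, against 38.4% of all genes, so the share in either direction was not far from the background. The direction was less even: 18 (43.9%) rose, against 17.4% of all genes, and 1 (2.439%) fell, against 21.0%. The median log2 fold change was 0.11, beside a median near 0 for all genes, and 33 of the 41 estimates were positive. The groups did not overlap at 7 genes that were higher (8.28% of all genes) and 1 that was lower (7.56%).

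**Figure D2:**
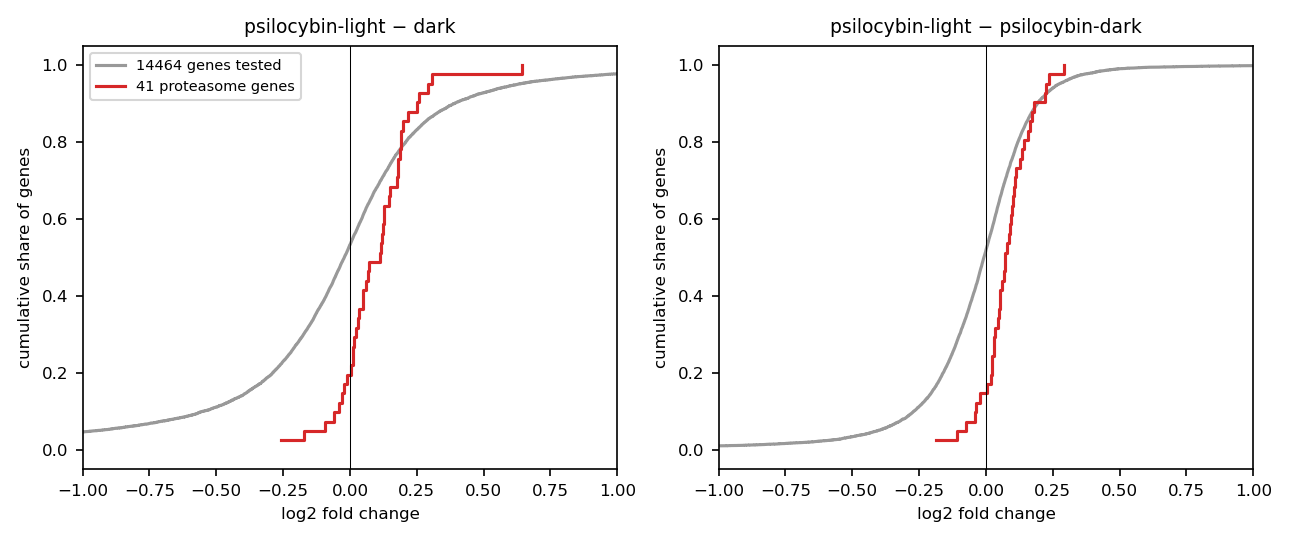
Cumulative share of genes (vertical axis) by log2 fold change (horizontal axis) for psilocybin-light less dark (left) and psilocybin-light less psilocybin-dark (right), with the 41 proteasome genes in red and the 14464 genes tested in grey. The red curve lies to the right of 0 for most genes, 33 of 41 on the left and 35 of 41 on the right, and spans a narrower range than the grey one.

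The ATPase ring showed this most evenly. All 6 Psmc genes had positive estimates in psilocybin-light mice against dark mice, from 0.07 to 0.25 on the log2 scale, and 5 of the 6 rose. Psmc3 had normalized counts of 2070, 2179 and 2250 (lowest, median and highest mouse) in dark mice, 2403, 2486 and 2565 in light mice, 2374, 2407 and 2524 in psilocybin-dark mice and 2458, 2615 and 2668 in psilocybin-light mice. Every dark mouse was below every other mouse. Psmc3 rose by 0.25 ± 0.03 (log2 fold change ± SE, adjusted p = 3.13e-06) in psilocybin-light mice, by 0.19 ± 0.03 (adjusted p = 0.0001) in light mice and by 0.16 ± 0.03 (adjusted p = 0.000831) in psilocybin-dark mice, all against the same 6 dark mice. Psmc1 had 2149, 2238 and 2331 in dark mice and 2362, 2560 and 2678 in psilocybin-light mice, which did not overlap, and rose by 0.19 ± 0.04 (adjusted p = 0.00131). Psmc4 rose by 0.18 ± 0.04, Psmc5 by 0.22 ± 0.06 and Psmc2 by 0.13 ± 0.04, with some overlap of mice at each. Psmc6 was at 0.07 ± 0.04 (adjusted p = 0.158).

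In the alpha ring, 3 of the 7 genes tested rose in psilocybin-light mice against dark mice, and none fell. Psma7 had 953, 1018 and 1114 in dark mice, 1125, 1190.0 and 1226 in light mice, 1031, 1069 and 1153 in psilocybin-dark mice and 1182, 1278 and 1328 in psilocybin-light mice. Psilocybin-light mice overlapped neither dark nor psilocybin-dark mice, but did overlap light mice. Psma7 rose by 0.31 ± 0.04 (adjusted p = 1.89e-05) against dark. Psma5 rose by 0.14 ± 0.05 (adjusted p = 0.0222) and Psma3 by 0.11 ± 0.04 (adjusted p = 0.0249), while Psma1, Psma2, Psma4 and Psma6 were between 0.00 and 0.07 and did not pass.

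Of the structural beta subunits, Psmb1, Psmb3 and Psmb4 rose and Psmb2 was at 0.03 ± 0.04. Psmb3 had 417, 436 and 489 in dark mice and 487, 549 and 597 in psilocybin-light mice, which touched at their edges, and rose by 0.29 ± 0.06 (adjusted p = 0.000337). Psmb4 had 1738, 1836 and 1999 in dark mice and 2047, 2107 and 2259 in psilocybin-light mice, with no overlap, and rose by 0.19 ± 0.04 (adjusted p = 0.00113). Among the standard cutting subunits, Psmb5, the chymotrypsin-like site, rose by 0.19 ± 0.05 (adjusted p = 0.00597), while Psmb6, the caspase-like site, was at 0.05 ± 0.05 and Psmb7, the trypsin-like site, at 0.02 ± 0.04.

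The regulatory particle outside the ATPase ring was divided: 4 of 11 non-ATPase genes rose and 1 fell. Psmd3, a lid subunit, had 1978, 2149 and 2264 in dark mice and 2365, 2395 and 2530 in psilocybin-light mice, with no overlap, and rose by 0.18 ± 0.03 (adjusted p = 0.000227). With an offset for transcript length and GC content, described below, Psmd3 was at 0.06 (adjusted p = 0.201). The ubiquitin receptor Psmd4, Psmd7 and Psmd13 rose by 0.12, 0.12 and 0.13. The deubiquitinase Psmd14 was at 0.13 ± 0.05 and just missed the threshold (adjusted p = 0.0621). The 3 base assembly chaperones, Psmd5, Psmd9 and Psmd10, which leave before the particle is complete, did not pass and had estimates from -0.09 to -0.01. Of the activators, Psme4 rose by 0.26 ± 0.10 (adjusted p = 0.0447), with psilocybin-light mice (711, 754.6 and 783) inside the range of dark mice (486, 587 and 890.1), a call that 16 of the 24 leave-one-out fits did not make.

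Psmd11, a lid subunit known for its part in joining the regulatory particle to the core, was the exception. It had 956, 1011 and 1101 in dark mice, 942, 980.3 and 1036 in light mice, 947, 965 and 1003 in psilocybin-dark mice and 794, 854 and 932 in psilocybin-light mice. All 6 psilocybin-light mice were below all 18 others. It fell by 0.26 ± 0.04 on the log2 scale against dark (adjusted p = 5.45e-05), by 0.20 ± 0.04 against light (adjusted p = 0.03) and by 0.19 ± 0.04 against psilocybin-dark (adjusted p = 0.00889), in comparisons that share the psilocybin-light mice. It was the 1 gene of 41 that passed in psilocybin-light against light, where 0.608% of all genes passed (0.0553% higher and 0.553% lower), and leaving out single mice removed this call in 8 of 24 fits. The groups did not overlap at 1 higher gene, Psmb1 (0.684% of all genes), and 1 lower gene, Psmd11 (0.933%). In that comparison the median over the 41 genes was 0.06, beside a median near 0 for all genes. Of the 41 estimates 38 were positive, and none of those passed.

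**Figure D3:**
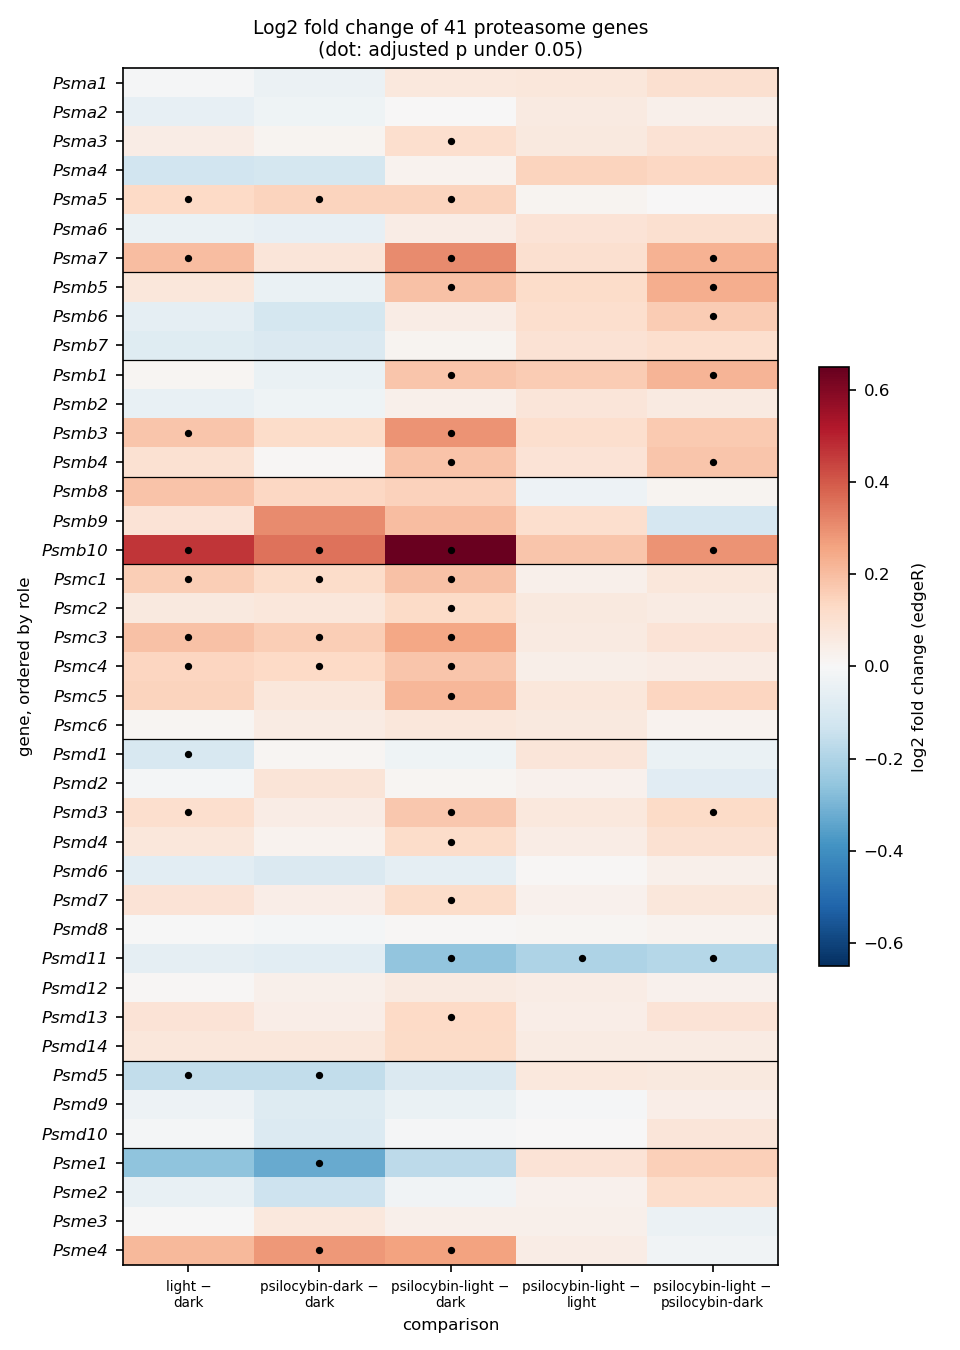
Log2 fold change (colour) of the 41 proteasome genes, ordered by role, in 5 comparisons, with a dot where the adjusted p was under 0.05. Psmb10 is the deepest red and Psmd11 the 1 gene with a dot on blue in 3 columns, and the third column holds the most dots (19).

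Light mice were compared with dark mice to measure the response to light alone. Here 10 of 41 genes (24.39%) passed, against 31.9% of all genes, a share below the background, with 8 higher (15.4% of all genes) and 2 lower (16.5%) and a median of 0.01. The groups did not overlap at 4 higher genes, against 5.59% of all genes, and at 1 lower gene, against 4.41%. The 8 that rose were Psma5, Psma7, Psmb3, Psmb10, Psmc1, Psmc3, Psmc4 and Psmd3. Psma7 rose by 0.20 ± 0.04 (adjusted p = 0.0016) and its 2 groups did not overlap. The assembly chaperone Psmd5 had 867, 970.0 and 994 in dark mice and 803, 857 and 891 in light mice, which overlapped, and fell by 0.16 ± 0.04 (adjusted p = 0.0035). Psmd1, the large scaffold of the base, had 1946, 2022 and 2084 against 1755, 1888 and 1944, with no overlap, and fell by 0.11 ± 0.04 (adjusted p = 0.0469), a call that 17 of the 24 leave-one-out fits did not make. Psmb3 rose by 0.18 ± 0.06 (adjusted p = 0.0177) and Psmc1 by 0.16 ± 0.04 (adjusted p = 0.00717). The Psma5 call was missing from 19 of the leave-one-out fits. With the offset for transcript length and GC content the split was 4 higher (Psmb10, Psmc1, Psmc3 and Psme4) and 3 lower (Psmb6, Psmb7 and Psmd5), against 30.7% of all genes, and Psma5, Psma7, Psmb3, Psmc4, Psmd1 and Psmd3 did not pass.

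Psilocybin-dark mice were compared with dark mice to measure the response to the drug alone. Of the 41 genes, 8 (19.51%) passed, against 24.7% of all genes, with 6 higher (11.9% of all genes) and 2 lower (12.8%) and a median of 0.02. The groups did not overlap at 2 genes, Psmc3 and Psmd2, both higher (3.13% of all genes), and at 0 lower ones (2.45%). The 6 that rose were Psma5 (0.14 ± 0.05, adjusted p = 0.0352), Psmb10, Psmc1, Psmc3, Psmc4 (0.13 ± 0.04, adjusted p = 0.0339) and Psme4. Leaving out single mice took the total down to as few as 3, and removed the call of Psmc1 in 17 of 24 fits, of Psme4 in 9, of Psma5 in 8, of Psmc4 in 7 and of Psme1 in 4. Psmd5 had 806, 855 and 916 in psilocybin-dark mice and fell by 0.16 ± 0.04 (adjusted p = 0.00512). Psme1, the PA28 alpha activator, had 352, 522 and 673 in dark mice and 379.9, 421 and 492 in psilocybin-dark mice. The dark mice spread so widely that they spanned every psilocybin-dark mouse, and Psme1 fell by 0.33 ± 0.10 (adjusted p = 0.025). Psme4 had 486, 587 and 890.1 in dark mice and 661, 758 and 856 in psilocybin-dark mice, again inside the dark range, and rose by 0.28 ± 0.10 (adjusted p = 0.0419). Psme2, the partner of Psme1 (-0.13 ± 0.09), and Psme3 (0.07 ± 0.04) did not pass. Psilocybin-dark and light mice differed at 0 of the 41 genes by edgeR, against 0.456% of all genes, with 0 called by DESeq2 as well, against 2.80%.

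These comparisons with dark share the dark mice, and fewer calls were made once the hippocampal signal was in the fit. The covariate was the mean log2 level of the hippocampal markers in each library. With it, 0 of the 41 genes passed in light against dark (5.86% of all genes) and 0 in psilocybin-dark against dark (0% of all genes). In psilocybin-light against dark 4 passed (6.16% of all genes), the 4 being Psma7, Psmb1, Psmc3 and Psmd11. The covariate was 2.25 to 3.75 in dark mice and at most 2.44 in the others, so dark mice stood mostly but not wholly apart. Its part in these results and that of the treatment cannot be fully told apart. Without the 4 libraries highest in cerebellar markers, 13, 10 and 18 genes passed in these 3 comparisons, against 43.1%, 38.3% and 48.2% of all genes.

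Psilocybin-light and psilocybin-dark mice both received the drug, and their fold changes are taken between these 12 mice, although all 24 mice set the spread in the fit. Here 8 of the 41 genes (19.51%) passed, against 6.38% of all genes, with 7 higher (17.07%, against 2.60% of all genes) and 1, Psmd11, lower (against 3.78%). The median was 0.07, beside a median near 0 for all genes, and 35 estimates were positive. The groups did not overlap at 6 higher genes, against 2.61% of all genes, and 1 lower gene, against 3.80%. Without the 4 libraries highest in cerebellar markers 12 genes passed, against 17.2% of all genes, and with the hippocampal covariate 7 passed, against 8.01%.

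Psmb1, a beta subunit without a cutting site, gave a clear separation. It had 1436, 1533 and 1686 in dark mice, 1445, 1557 and 1637 in light mice, 1441, 1507 and 1557 in psilocybin-dark mice and 1639, 1728 and 1895 in psilocybin-light mice. Psilocybin-light mice were above all light and all psilocybin-dark mice and overlapped dark mice at 1 end. Psmb1 rose by 0.22 ± 0.04 against psilocybin-dark (adjusted p = 0.00361) and by 0.18 ± 0.04 against dark (adjusted p = 0.00244), while against light it was at 0.17 ± 0.04 and missed the threshold (adjusted p = 0.0912). The first of these calls held whichever of the 24 mice was left out.

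Psmb5 and Psmb6 also rose. Both have the antioxidant response element shown above, while the other 4 genes with it (Psmc6, Psmd7, Psmd9 and Psmd12) did not pass. Psma7, Psmb1, Psmb4, Psmb10 and Psmd3 rose without a match to it. A link between motif and fold change was not tested. Psmb5 had 609, 628 and 690.0 in psilocybin-dark mice and 657, 749.7 and 862 in psilocybin-light mice, which overlapped, and rose by 0.24 ± 0.05 (adjusted p = 0.00874). Psmb6 had 1117, 1192 and 1208 in psilocybin-dark mice and 1263, 1325 and 1366 in psilocybin-light mice, with no overlap, and rose by 0.17 ± 0.05 (adjusted p = 0.0298). Psmb7 was at 0.11 ± 0.04 (adjusted p = 0.108). The other genes that rose were Psma7 (0.23 ± 0.04, adjusted p = 0.00374), Psmb4 (0.18 ± 0.04, adjusted p = 0.0102), Psmd3 (0.13 ± 0.03, adjusted p = 0.0209) and Psmb10 (0.29 ± 0.09, adjusted p = 0.0489). Leaving out single mice removed the Psmb10 call in 18 of 24 fits and the Psmb6 call in 8. No ATPase gene passed, although all 6 estimates were positive, from 0.02 to 0.14.

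**Figure D4:**
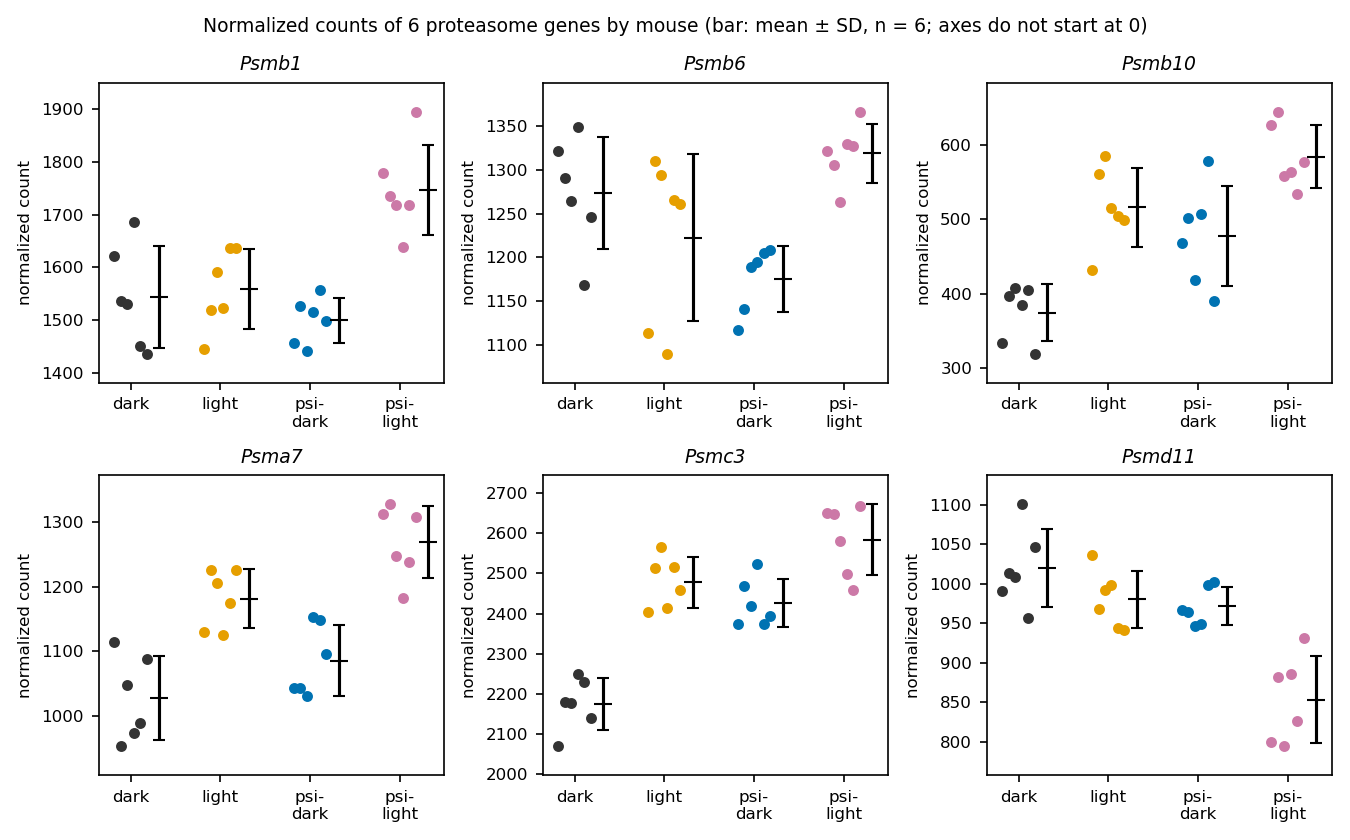
Normalized counts (vertical axes, which do not start at 0) of 6 proteasome genes in each mouse, by group, with bars for the mean ± SD of 6 mice. In Psmb1 the psilocybin-light mice lie between 1639 and 1895, above all psilocybin-dark mice (1441 to 1557), and in Psmd11 they lie between 794 and 932, below all others.

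The transcripts of these genes are short, and short transcripts as a whole moved in the same direction. The canonical transcripts of the 41 genes had a median length of 1702 bases, against 3492 for the genes tested, and 24 of the 41 were at most 2202 bases long, within the shortest of 4 equal length classes. In psilocybin-light against psilocybin-dark, the median log2 fold change of all genes was 0.09 in the shortest class, 0.02 and -0.03 in the middle classes and -0.10 in the longest. With an offset for transcript length and GC content, 3 of the 41 genes passed in this comparison, against 2.47% of all genes: Psmb1 (0.33) and Psma3 (0.15) were higher and Psmd11 (-0.18) was lower. Psma7, Psmb4, Psmb5, Psmb6, Psmb10 and Psmd3 no longer passed, with estimates from 0.05 to 0.17. The length taken for Psmb1 was that of its canonical transcript, 6002 bases, which places it among the long transcripts. Its estimate was 0.22 without the offset and 0.33 with it, and the parts of length and GC in this were not tested. In psilocybin-light against dark, where the shortest class was at 0.05 and the longest at -0.11, 13 genes passed with the offset, against 37.7% of all genes. Psma5, Psmb4, Psmb5, Psmc4, Psmd3, Psmd4, Psmd7 and Psmd13 did not pass with it, and Psmc6 and Psmd14 did. The estimate for Psmd11 stayed at -0.26 there.

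**Figure D5:**
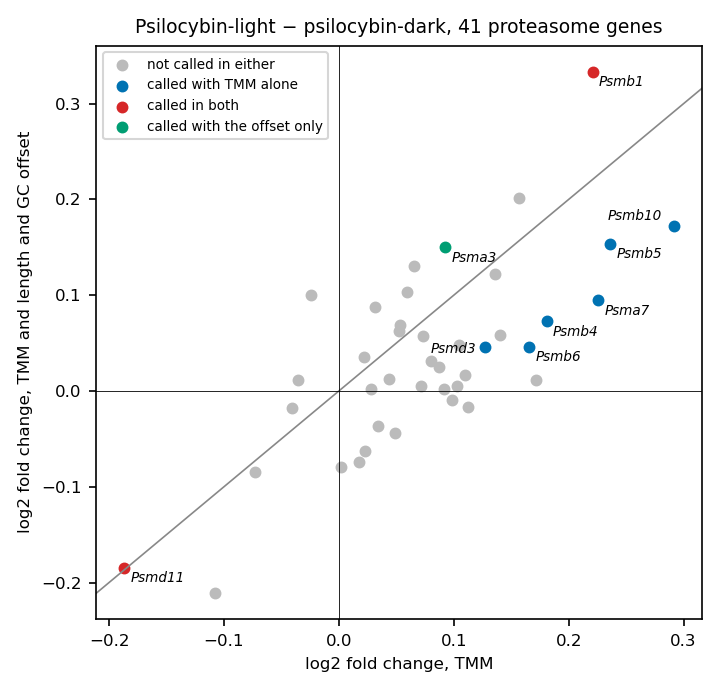
Log2 fold change of the 41 proteasome genes in psilocybin-light less psilocybin-dark, with TMM scaling alone (horizontal axis) and with an added offset for transcript length and GC content (vertical axis). The line marks equal values; most genes lie below it, and Psmb1 and Psmd11 were called in both.

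The immunoproteasome subunits were described apart, since they report on a different particle. Psmb10, which replaces Psmb7, had 319, 390.4 and 408 in dark mice, 432, 509.5 and 585 in light mice, 390.4, 485 and 579 in psilocybin-dark mice and 535, 570.5 and 645 in psilocybin-light mice. Light and psilocybin-light mice were above every dark mouse, and psilocybin-dark mice overlapped dark mice. It rose by 0.46 ± 0.09 (adjusted p = 0.000399) in light mice, by 0.35 ± 0.09 (adjusted p = 0.00586) in psilocybin-dark mice and by 0.64 ± 0.09 (adjusted p = 9.37e-06) in psilocybin-light mice against dark, the greatest fold change of the 41 genes in each of these comparisons. In the same edgeR test with the hippocampal covariate, Psmb10 passed in none of them (adjusted p = 0.188, 0.704 and 0.077). Its normalized count per kilobase of coding length was also taken as a percentage of that of Psmb7. This was 31.26 ± 3.695% (SD, n = 6) in dark mice, 45.55 ± 5.461% in light mice, 42.51 ± 6.013% in psilocybin-dark mice and 48.3 ± 4.164% in psilocybin-light mice.

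The other immunoproteasome subunits gave no such difference at their low counts. Psmb8 had medians of 40.94, 46.14, 45.9 and 44.02 in dark, light, psilocybin-dark and psilocybin-light mice, and Psmb9 had 20.54, 16.14, 23.84 and 21.14. Their standard errors were 0.19 and 0.29 on the log2 scale, and neither passed in any comparison. Of 16 interferon and major histocompatibility class I genes, which are commonly induced together with the immunoproteasome, 1 (B2m, which rose by 0.39, 0.33 and 0.44) passed in each comparison with dark. The sum of 10 microglial markers also differed between groups. It was 5159 to 7958 in dark mice, 7730 to 9118 in light mice, 6652 to 8905 in psilocybin-dark mice and 7757 to 8835 in psilocybin-light mice. The medians of this sum were 7180 in dark, 7613 in psilocybin-dark, 8262 in psilocybin-light and 8626 in light mice. For both this sum and Psmb10 the median was lowest in dark mice and next lowest in psilocybin-dark mice. The highest median was in light mice for the sum and in psilocybin-light mice for Psmb10. The part of these markers in the result was not tested.

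The interaction asked whether the psilocybin-light difference from dark departed from the sum of the light and psilocybin differences. Of the 41 genes, 5 (12.2%) passed, against 8.75% of all genes. All 5 were upward (3.89% of all genes) and 0 downward (4.86%). They were Psma4 (0.26 ± 0.08, adjusted p = 0.0364), Psmb1 (0.21 ± 0.06, adjusted p = 0.04), Psmb6 (0.22 ± 0.06, adjusted p = 0.033), Psmb7 (0.19 ± 0.06, adjusted p = 0.041) and Psmd5 (0.22 ± 0.06, adjusted p = 0.0151). Psma4 had 744, 806 and 892 in dark mice, 713, 737 and 785 in light mice, 713, 736 and 819 in psilocybin-dark mice and 723, 835 and 914 in psilocybin-light mice, so the mice of all groups overlapped. Psmb7 had 1148, 1225 and 1252 in dark mice, 1056, 1168 and 1197 in light mice, 1087, 1157 and 1176 in psilocybin-dark mice and 1145, 1215 and 1356 in psilocybin-light mice. In each of these genes except Psmb1 the light and the psilocybin-dark medians were below the dark median, and the psilocybin-light median was above both of them. Without the 4 libraries highest in cerebellar markers 8 genes passed, but 27.0% of all genes did as well, and with the hippocampal covariate 0 genes passed of the 41 and of all genes.

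Other genes of the pathway were measured as well, and most lists had few calls or a share near that of all genes. In psilocybin-light against dark, where 38.4% of all genes passed, the shares were 20.0% of core assembly chaperones, 40.0% of proteasome-associated proteins, 14.29% of regulators, 60.0% of ubiquitin shuttles (3 of 5) and 6.25% of the interferon and class I genes. Of 5 core assembly chaperones, Pomp, which completes the maturation of the core, rose in light mice (0.21) and psilocybin-light mice (0.27) against dark, and the 4 Psmg genes did not pass. Of 10 proteasome-associated proteins, 2 rose in psilocybin-light mice against dark (the deubiquitinase Uchl5, 0.15, and the inhibitor Psmf1, 0.13) and 2 fell (the ligase Ube3c, -0.13, and the adaptor Ecpas, -0.14). Of 7 genes that control proteasome gene expression through NRF1 and its processing, 1 passed in that comparison, Vcp, which fell by 0.15, and neither Nfe2l1, which encodes NRF1, nor Nfe2l2 passed in any.

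Genes that encode ubiquitin and the enzymes that activate it were also measured. In psilocybin-light mice against psilocybin-dark mice, where 6.38% of all genes passed, Rps27a, which encodes ubiquitin fused to a ribosomal protein, rose by 0.31, and the activating enzyme Uba6 fell by 0.39. The ubiquitin gene Ubb and the activating enzyme Uba1 did not pass there. Of the ubiquitin shuttles, Rad23b rose by 0.14 in psilocybin-light mice against dark, Ubqln4 rose by 0.52, 0.47 and 0.45 and Ubqln2 fell by 0.31, 0.26 and 0.33 in light, psilocybin-dark and psilocybin-light mice against dark, and 0 passed in psilocybin-light against psilocybin-dark.

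The members that passed in none of the 7 tests were 16 of the 41: Psma1, Psma2, Psma6, Psmb2, Psmb8, Psmb9, Psmc6, Psmd2, Psmd6, Psmd8, Psmd9, Psmd10, Psmd12, Psmd14, Psme2 and Psme3. They include the ubiquitin-binding scaffold Psmd2, which had the highest mean normalized count of the 41, at 3535, and the nuclear activator Psme3.

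Counting limits apply to some members. An exonic base was shared with another annotated gene in 19 of the 41, and with another protein-coding gene in 9 (Psma4, Psmb7, Psmb9, Psmc5, Psmd1, Psmd10, Psmd13, Psme1 and Psme2). The strand setting of the counting is not given in the sources used here, so reads of overlapping genes could not be assigned with certainty. Psme2 has a near-identical copy, Psme2b, which makes its count less certain.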

How the data were processed

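The authors trimmed poly-A enriched RNA-seq reads with cutadapt, mapped them with STAR and counted them per gene with HTSeq. The deposited values are raw counts for 55414 genes in 24 libraries. The study's methods name GRCm39 and the sample labels mm10, and the annotation release is not given in the sources used here. Groups followed the supplementary headings, matched by library name. The 14464 genes that reached 30 reads in some library were fitted with edgeR 4.0.16 in R 4.3.3: TMM scaling, a quasi-likelihood model with 1 term per group over all 24 mice, two-sided tests, and Benjamini-Hochberg adjustment over all genes, with a threshold of 0.05. To obtain normalized counts, each library was brought to the mean effective size of 16058300 reads. The standard error was computed as the size of the log2 fold change divided by the square root of F. The fit was tested on simulated counts with known changes in a small set of genes of the light group. Those counts held no tissue differences between libraries, so that test does not cover them. GENCODE vM39 gave gene names (14427 of the genes tested), lengths and promoters. Genes named with values include up to 5 members per direction and comparison with the largest fold change past the threshold. The members and lists were chosen with earlier results of these data known. Alternatives used DESeq2 1.42.0, fits without a filter or with filterByExpr, DESeq2 size factors, fits to the compared groups alone, 1 surrogate variable (sva 3.50.0), a hippocampal covariate, a loess offset for length and GC (span 0.5), the sample labels, and left-out libraries. Leaving out the 4 libraries highest in cerebellar markers was chosen after seeing the data. Littermates were allotted to groups at random per the study's methods, but litters are not tied to libraries in the sources used here and could not enter the fit. Some genes of the ubiquitin list are not reported here.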

Additional observations from a re-analysis of the deposited data

Results flagged for a closer look

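Among 22 genes screened in each group of 6 mice (88 groups of values), 4 held a mouse whose gap to the nearest other mouse exceeded Dixon's 95% critical share of the group's range, where chance gives about 1 in 20 groups. These were Psma5 in psilocybin-dark mouse 12 (lowest, 473.5 normalized counts), Psmb7 in dark mouse 5 (lowest, 1148), Psmb8 in psilocybin-light mouse 23 (highest, 61.15) and Psme1 in light mouse 13 (lowest, 365.4). Psilocybin-dark mouse 12 was also among the 4 libraries highest in cerebellar markers.

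The effect of light differed between mice with and without psilocybin, by the interaction test in edgeR with Benjamini-Hochberg adjustment, in 5 genes: Psma4 (log2 difference 0.2598), Psmb1 (0.2066), Psmb6 (0.2244), Psmb7 (0.188) and Psmd5 (0.2246). Over 24 leave-one-out fits, the call disappeared in 13 for Psma4, 14 for Psmb1, 7 for Psmb6, 15 for Psmb7 and 0 for Psmd5.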

How the results depend on the processing

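Leaving out 1 mouse at a time gave 7 to 12 genes called in light against dark, 3 to 8 in psilocybin-dark against dark, 15 to 21 in psilocybin-light against dark, 0 to 2 in psilocybin-light against light, 5 to 10 in psilocybin-light against psilocybin-dark, 0 in psilocybin-dark against light and 1 to 7 in the interaction. In the same order, the shares of all genes were 27.2% to 34.8%, 19.0% to 29.2%, 33.9% to 40.1%, 0.0622% to 1.07%, 4.05% to 8.67%, 0.0208% to 2.40% and 5.77% to 14.5%. The count in psilocybin-light against psilocybin-dark fell to 5 without psilocybin-dark mouse 8 or psilocybin-light mouse 24. In psilocybin-dark against dark it was 3 without dark mouse 2 or psilocybin-dark mouse 11, 4 without psilocybin-dark mouse 8, 9 or 10, and 5 without dark mouse 1, 3 or 4. The interaction stayed within 1.5 times its count in 9 of 24 fits and was 1 without dark mouse 4, psilocybin-dark mouse 8, light mouse 13 or 16, or psilocybin-light mouse 24. Of 51 gene results, 27 kept sign and call in all these fits. No paired analysis was possible because the libraries carry no replicate number shared between groups.

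In the same order of comparisons (the interaction last), no filter gave 5, 4, 13, 0, 3, 0 and 0 genes. The shares of all genes were then 12.7%, 9.36%, 16.0%, 0.0693%, 1.46%, 0% and 2.39%. Only the compared groups gave 5, 3, 15, 0, 8 and 0 genes, against 21.4%, 13.6%, 29.9%, 0.401%, 11.4% and 1.68% of all genes. The hippocampal covariate gave 0, 0, 4, 1, 7, 0 and 0, against 5.86%, 0%, 6.16%, 0.608%, 8.01%, 1.29% and 0% of all genes. Under it Psme1 in psilocybin-dark against dark (0.005995) and Psme4 in psilocybin-light against dark (-0.03581) turned sign. The length and GC offset gave 3 in psilocybin-light against psilocybin-dark (2.47% of all genes), and Psmd3 in light against dark turned to -0.02222 (adjusted p = 0.653). In psilocybin-light against light, DESeq2, 1 surrogate variable, leaving out dark mice 1 and 6, and leaving out the 4 libraries highest in cerebellar markers each gave 2, and filterByExpr gave 0. In that order of settings, 1.32%, 2.09%, 1.33%, 2.34% and 0.352% of all genes passed. The surrogate variable gave 1 in psilocybin-dark against light (5.93% of all genes), and the 4 left-out libraries gave 8 in the interaction (27.0%). Under the light exposure of the sample labels the counts were 10, 1, 0, 8, 8, 19 and 5, with light against dark, psilocybin-light against psilocybin-dark and the interaction reversed. The shares of all genes were then 31.9%, 0.608%, 0.456%, 24.7%, 6.38%, 38.4% and 8.75%. The cause of a change between settings was not tested for any of these results. DESeq2 lost 1 of the 51 gene results, DESeq2 size factors 2, filterByExpr 3, the surrogate variable 0, only the compared groups 15, the offset 22, no filter 27 and the covariate 39. At counts as low as those of Psmb8 and Psmb9, only large differences could have passed.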
